A study of Homo sapiens with 6 samples.

Results

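Replication-dependent histones are the linker histone H1 and the core histones H2A, H2B, H3 and H4 that a dividing cell makes to package newly copied DNA. Members were taken by name from tables of ribosome footprints in CHL-1 cells, a human line established from a melanoma. A gene entered if its RefSeq messenger carried a current symbol of the form H1-1 to H1-6, H2AC, H2BC, H3C or H4C with a number. Of 11227 genes with a row in any of the 3 tables, 34 are members, and 35 of the 69 symbols of that form had no row. The members comprise 6 of 6 H1 symbols, 9 of 17 H2A, 9 of 18 H2B, 6 of 13 H3 and 4 of 15 H4 symbols. The tables, called parental, edited and treated below, list 32, 34 and 33 of them. H1-1 was listed only in the edited and treated tables, with coding depths of 300 and 379, and H1-6 only in the edited table, with 337, so 32 members could be compared.

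The series sequenced ribosome-protected fragments from 6 libraries in 3 groups of 2, all of CHL-1 cells. The untreated parental line is the first group. The second is CHL-1 in which CRISPR was used to knock down SNORD50A/B, neighbouring genes for small nucleolar RNAs of the box C/D kind, and which received no drug. The third is CHL-1 given 10 mM AZC, a proline analog that is built into new proteins, together with 20 µM MG132, which blocks the proteasome, over 20 minutes. In each group 1 library is labelled as having had ribosomal RNA removed. The labels do not say whether the edited cells are 1 clone or a pool, and the knockdown of the small nucleolar RNAs cannot be read from tables of messenger footprints.

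Core histones form the octamer that DNA wraps around, H2A pairing with H2B and H3 with H4, while H1 binds the linker DNA between nucleosomes. Their genes lie in clusters, have no introns and are read mainly in S phase. Their messengers end in a conserved stem-loop in place of a poly(A) tail, and SLBP, the protein bound to that stem-loop, helps them to be translated. Many copies encode the same or nearly the same protein.

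Each condition has 1 deposited table that gives read depth in 400 bins per transcript, and no library has values of its own. Every difference below is therefore one between single tables, with no replicate spread and no test, and a change in the amount of a messenger cannot be told apart from a change in ribosomes per messenger. The level of a gene is its depth over the 200 coding bins per 1000000 of the table's coding depth. Total coding depth, in units of 1000000, came to 405.6 (parental), 497.1 (edited) and 286.9 (treated). Depth counts bases of mapped reads and not separate fragments, so no counting interval is given. Coding depth differed by less than 0.1% in every table between H2AC18 and H2AC19, between H3C14 and H3C15 and between H4C14 and H4C15. Those pairs share their reads and are named below by the first gene, and other histone copies may share part of theirs. Melanoma and neural crest markers were listed for 12 of 14 genes. In the parental table SOX10 had a level of 382.8, S100B 28.3 and NES 353.7, while MITF had 6.86, DCT 3.96 and PMEL 2.51. MLANA was at 0 in all 3 tables, and TYR and TYRP1 had no row. Of 12 markers of keratinocytes, epithelium, blood, endothelium, liver and glia, 3 had a row (KRT10, PTPRC and GFAP), none above a level of 2.66.

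The promoters of the H2B and H1 members are shown because those classes stood furthest apart in the treated cells. RefSeq windows of GRCh38.p14, from 250 bases before to 50 bases after a start site, matched 33 of the 34 members. The octamer ATTTGCAT, the element bound by POU2F1 and known from H2B promoters, was searched on both strands. It was found in 6 of 9 H2B, 5 of 9 H2A, 1 of 5 H3, 0 of 6 H1 and 0 of 4 H4 members, against 1.77% of all 35116 promoter windows. The H2B windows with it, 30 bases each with the octamer in capitals, run 5′ to 3′ on the strand of the gene, and in H2BC17 the octamer is on the opposite strand.
H2BC8, chr6:26216718-26216747, minus strand: ttgaattctttATTTGCATgaaaggcctat
H2BC11, chr6:27132824-27132853, minus strand: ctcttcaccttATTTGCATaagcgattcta
H2BC12, chr6:27146886-27146915, minus strand: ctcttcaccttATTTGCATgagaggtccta
H2BC17, chr6:27893265-27893294, plus strand: gcttcctcttaATGCAAATgagctttctga
H2BC18, chr1:149812401-149812430, minus strand: tgcgagtcttcATTTGCATacgggctctat
H2BC21, chr1:149886710-149886739, minus strand: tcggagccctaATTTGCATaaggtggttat
The octamer began 46 to 49 bases before the annotated start in 5 of these and 149 before it in H2BC17. The same bases, read on the other strand, lie upstream of H2AC8, H2AC11 and H2AC17, the neighbours that are read away from H2BC8, H2BC11 and H2BC17.

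All 6 H1 promoters held the letters AAACACA, known as the H1 box, as did 2 of 5 H3 and no H2A, H2B or H4 window, against 5.64% of all windows. The H3 windows are those of the copies H3C14 and H3C15. There the letters lay on the opposite strand, 35 and 31 bases after the start. In the 4 H1 genes that could be compared the element nearest to the start began 117 to 119 bases before it (capitals).
H1-2, chr6:26056571-26056600, minus strand: tgaggtggaacAAACACAacttgggagcag
H1-3, chr6:26235088-26235117, minus strand: taaggggcaacAAACACAgcagcgcggtag
H1-4, chr6:26156201-26156230, plus strand: tgaggtgtaacAAACACAactcgggatccg
H1-5, chr6:27867687-27867716, minus strand: tgaggactaacAAACACAatttgggagtcc
CCAAT occurred in 30 of 33 member windows against 34.6% of all windows, with 1 of 4 H4 windows holding it. TATAAA occurred in 24 of 33 against 11.5%. No searched motif is contained in another, and a match is only a description of these letters.

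The members together held 2.32% of coding depth in the parental, 2.46% in the edited and 3.69% in the treated table. With each identical pair counted once the shares were 1.81%, 1.98% and 2.93%. H2B took the largest part of this, with 0.675%, 0.742% and 1.31% of coding depth in the same order of tables. H2B was thus 1.94-fold higher in the treated than in the parental table as a summed class. H4 was 1.69-fold, H3 1.54-fold, H2A 1.36-fold and H1 1.13-fold higher. Against the parental table the edited line was within 1.15-fold for every class sum, and H4 was the class below 1, at 0.914.

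Levels of different genes were set side by side per kb of coding sequence, with the length read from the bins themselves, at 312 bases for H4, 382 for H2B, 394 for H2A, 412 for H3 and 642 to 680 for H1. H3C11 and H4C13 had too few covered bins for a length. Per kb the highest rows of the parental table were the shared-read pairs of the core histones. A row of such a pair holds reads shared by both copies, so its level is not that of a single gene. Whether these genes or others such as H2BC12 were the most occupied per gene cannot be read from it. H2BC12 exceeded the row of H2AC18 in the edited and treated tables. H4C14, an H4 gene of the chromosome 1 cluster, stood at 4989.5 in the parental, 4537 in the edited and 8447 in the treated table. H3C14, an H3 gene of the same cluster, stood at 4981, 4673 and 7490.2, and H2AC18, an H2A gene, at 3769, 3705 and 4813. All 3 had the edited line a little below the parental and the treated cells above both.

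Among H2B genes, H2BC12 was the highest per kb, at 3432 in the parental, 4088 in the edited and 6618 in the treated table. H2BC18 stood at 2847, 2791 and 5852 and H2BC21 at 2751, 2577 and 5150.4. The lowest H2B gene per kb in all 3 tables was H2BC8, at 333.3, 423.6 and 645.0. Linker histones were more even, apart from H1-3. H1-5 stood at 1451, 1493 and 1514 per kb, H1-4 at 1343, 1516 and 1340.2, and H1-2 at 1249.9, 1598 and 1704. H1-3 lay far below them, at 36.4, 75.6 and 68.5. The lowest H4 gene with a length was H4C16, the only member on chromosome 12, at 113.4, 91.7 and 213.9.

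**Figure D1:**
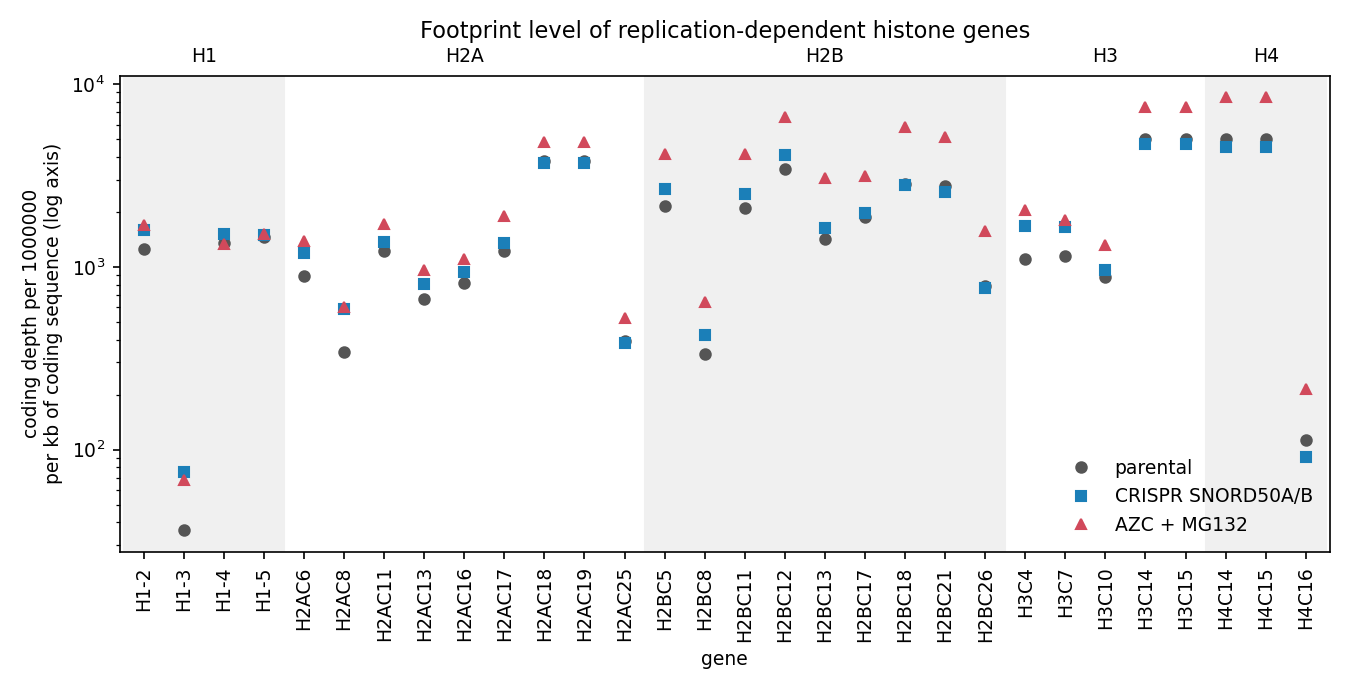
Coding depth per 1000000 per kb of coding sequence (log axis) for the 30 members with a length, 1 point per table, with grey bands separating the histone classes. All 9 H2B genes lie highest in the treated table, while H1-4 and H1-5 have nearly the same level in the 3 tables.

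Treated and parental cells were set against each other to see which histone messengers carried more or fewer footprints after 20 minutes of AZC and MG132. Of 32 members, 22 stood 1.5-fold or more above parental, where 7.24% of the 7296 compared genes were, and 0 were 1.5-fold or more lower, where 10.4% were. At 2-fold, 4 members were higher against 1.1% of genes and 0 lower against 2.33%. The median log2 ratio of the members was 0.71 and that of all compared genes -0.02. Of the 32 members, 31 stood above 0 against 48.0% of all compared genes, and the exception, H1-4, was at 0. With each identical pair counted once the members' median was 0.76. The counts of members include both copies of each pair.

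H2B genes were the most uniformly higher class, with 9 of 9 past 1.5-fold, a median log2 ratio of 0.95 and a range of 0.76 to 1.11. H2BC13 had a level of 539.0 in the parental, 623.3 in the edited and 1164.5 in the treated table, a 2.16-fold difference between treated and parental. H2BC18 had 1087.7, 1066.2 and 2235 and was 2.06-fold higher in the treated cells. H2BC26 had 299.7, 293.5 and 602.6, 2.01-fold higher. In these genes the parental and edited tables were close and the treated table stood apart. H2BC12, the most occupied H2B gene, had 1311, 1562 and 2528, a log2 ratio of 0.95 against parental. The 6 H2B genes with the octamer in their promoter window had log2 ratios of 0.76 to 1.04. The 3 without it, H2BC5, H2BC13 and H2BC26, had 0.94, 1.11 and 1.01, so the ranges overlapped. Among H2A genes the 5 with the octamer had 0.44 to 0.81 and those without it 0.35 to 0.52. The H2A genes past 1.5-fold, H2AC6, H2AC8 and H2AC17, all hold it. A part of the octamer in these ratios was not tested.

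H3 and H4, which pair in the nucleosome, were higher by less. All 6 H3 genes passed 1.5-fold, with a median log2 ratio of 0.63, but 3 of them lay just past it, with 0.59 for H3C10, H3C14 and H3C15. H3C14 had a level of 2052 in the parental, 1925 in the edited and 3086 in the treated table. H3C4 had 455.1, 692.5 and 842.9, a log2 ratio of 0.89. H3C11 had the largest ratio of the class, 1.09, from levels of 25.1, 48.4 and 53.6, and its depth lay in 124, 82 and 63 of the 200 coding bins, so that its value rests on few positions. Of 4 H4 genes 3 passed 1.5-fold. H4C14 had 1556.7, 1416 and 2636, a log2 ratio of 0.76, and H4C16 had 35.4, 28.6 and 66.7, a log2 ratio of 0.92. The exception was H4C13, at 0.22, with 25.6, 40.5 and 29.7 and between 69 and 104 covered bins.

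H2A genes, the partners of H2B, had a median log2 ratio of 0.48, and 3 of 9 passed 1.5-fold. H2AC8 had the largest ratio, 0.81, with levels of 134.5 in the parental, 230.7 in the edited and 236.2 in the treated table. H2AC18, the most occupied per kb, had 1485, 1459.6 and 1896 and a log2 ratio of 0.35, which with its copy H2AC19 was the smallest of the class. H2AC17 had 478.5, 533.4 and 745.5, a log2 ratio of 0.64. All 9 H2A ratios were above 0, and the lowest H2B ratio, 0.76 for H2BC17, exceeded all H2A ratios but that of H2AC8.

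Linker histones had the lowest median log2 ratio of the classes, 0.25 over 4 genes, with 1 past 1.5-fold. H1-4 had levels of 886.6 in the parental, 1000.5 in the edited and 884.5 in the treated table, so treated and parental differed by less than 1%, and the sign of its ratio turned to above 0 when ratios were centred on the median of all genes. H1-5 had 986.9, 1015 and 1029.8, a log2 ratio of 0.06. H1-2 had 802.4, 1025.7 and 1094, a log2 ratio of 0.45. H1-3, the least abundant of the 4, had 24.2, 50.4 and 45.6, a log2 ratio of 0.91.

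**Figure D2:**
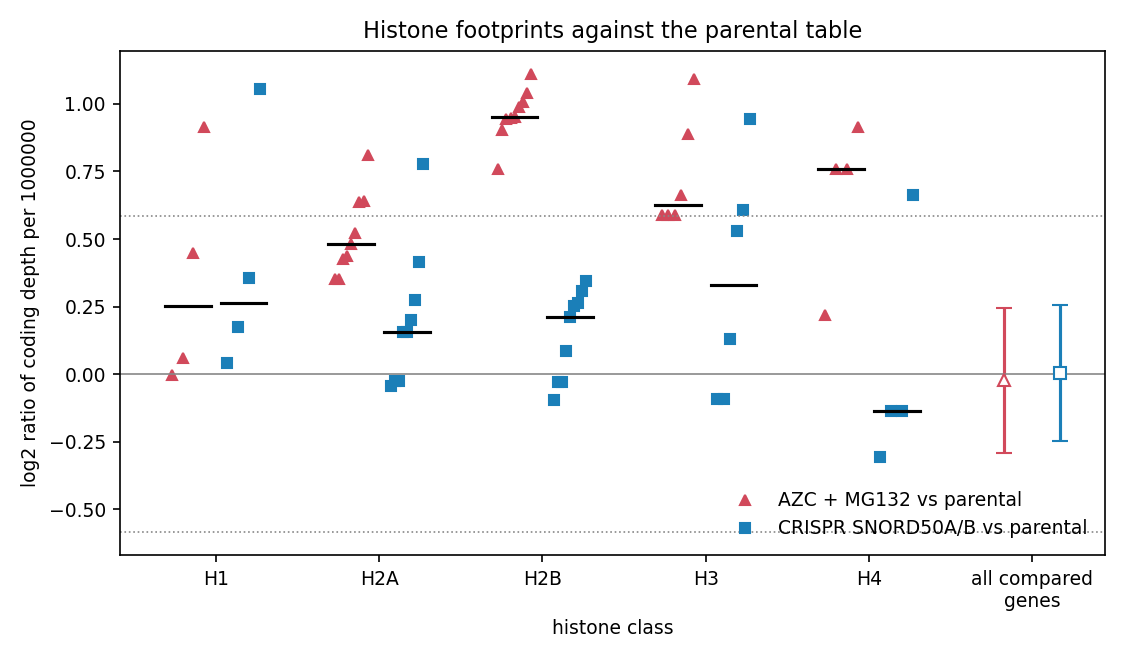
Log2 ratio of coding depth per 1000000 against the parental table for each compared member, by histone class, for AZC + MG132 (triangles) and the edited line (squares). Black bars are class medians, open symbols with bars the median and quartiles of all compared genes, and dotted lines 1.5-fold. In the treated cells the H2B median is 0.95 and the H1 median 0.25, while the edited line's class medians lie between -0.14 and 0.33.

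In 5 places an H2A and an H2B gene are neighbours read away from each other, so that a stretch of DNA lies upstream of both. In all 5 the H2B gene had the larger log2 ratio of treated to parental. H2AC13 stood at 0.52 and its neighbour H2BC13 at 1.11, a difference of 0.59. H2AC25 at 0.43 and H2BC26 at 1.01 differed by 0.58, and H2AC11 at 0.48 and H2BC11 at 0.99 by 0.51. The other 2 pairs were closer, with H2AC8 at 0.81 and H2BC8 at 0.95, and H2AC17 at 0.64 and H2BC17 at 0.76. In the edited line the pair members did not divide this way, and the H2B gene had the larger ratio in 2 of 5. There the H2B minus H2A difference ran from -0.43 for H2AC8 and H2BC8 to 0.10 for H2AC11 and H2BC11.

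**Figure D3:**
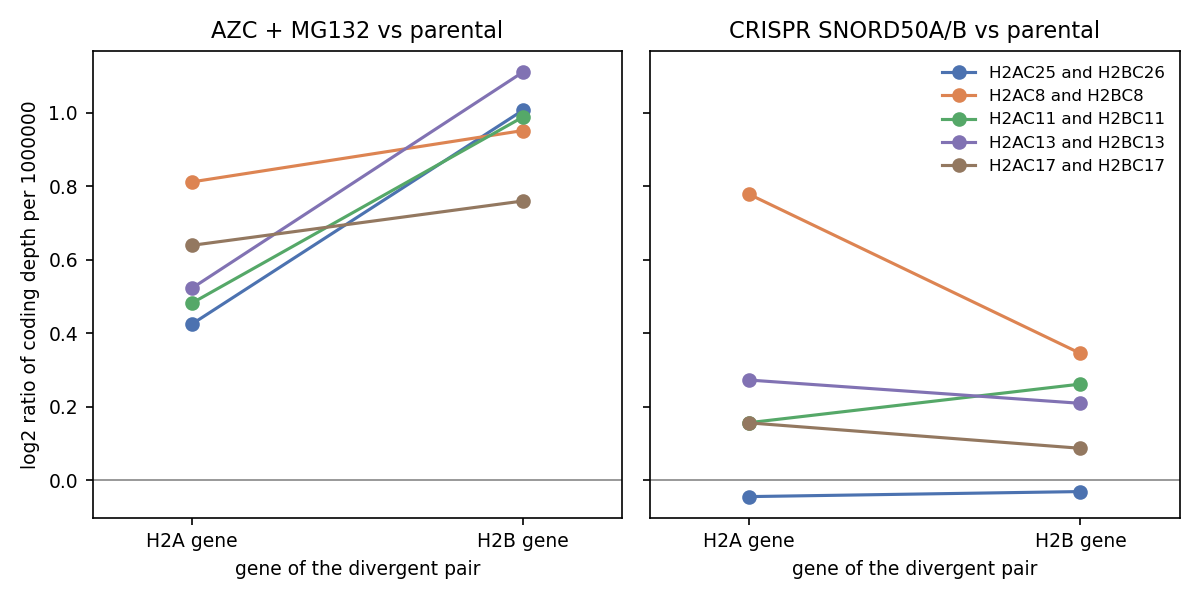
Log2 ratio of coding depth per 1000000 against the parental table for the H2A and the H2B gene of each of 5 divergent pairs, joined by a line, in the treated cells (left panel) and the edited line (right panel). The lines climb from H2A to H2B in 5 of 5 pairs on the left and in 2 of 5 on the right.

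Edited and parental cells were set against each other to see whether ribosomes sat differently on histone messengers in the cells edited at SNORD50A/B. The members' median log2 ratio was 0.17 against 0.00 for all 7559 compared genes, with 21 of 32 above 0 against 50.6% of genes. In the edited line 5 members were 1.5-fold or more higher, where 7.74% of genes were, and 0 were 1.5-fold lower, where 8.14% were. At 2-fold 1 member was higher, against 1.2% of genes, and 0 were lower, against 1.59%. The 5 were H1-3 at 1.06, H3C11 at 0.94, H2AC8 at 0.78, H4C13 at 0.66 and H3C4 at 0.61. H1-3, H3C11 and H4C13 have, in the parental table, the 3 lowest coding depths of the compared members, 9829, 10199 and 10368. With a level minimum 4 times higher, 3 members remained past 1.5-fold and 0 past 2-fold.

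By class, the edited line had medians of 0.26 for H1, 0.16 for H2A, 0.21 for H2B, 0.33 for H3 and -0.14 for H4. The sign of the ratio divided the members on chromosome 6 from those on chromosome 1. All 21 compared members on chromosome 6, where the main histone cluster lies, stood above 0, with a median of 0.27 and a range of 0.04 to 1.06. All 10 on chromosome 1 stood slightly below 0, from -0.14 to -0.03 with a median of -0.07, and 3 of these are shared-read copies. H4C16, alone on chromosome 12, was the lowest member at -0.31. H4C14 had -0.14, H3C14 and H2BC21 -0.09, H2AC18 and H2BC18 -0.03, and the pair H2AC25 and H2BC26 -0.04 and -0.03. Other genes had medians of -0.07 on chromosome 1 (824 genes), 0.07 on chromosome 6 (387 genes) and 0.08 on chromosome 12 (415 genes). Above 0 stood 40.3%, 59.2% and 56.9% of them, so H4C16 lay on the other side of 0 from the median of its chromosome. The members' medians on chromosomes 1 and 6 kept their sign over all 400 bins, over the first and over the last 100 coding bins, with exceptions among single members. On chromosome 1, 2 of 10 lay above 0 over all 400 bins and 4 of 10 over the first 100 coding bins, and on chromosome 6, 2 of 21 lay below 0 over the last 100. In the treated cells the chromosomes did not divide the members, with medians of 0.67 on chromosome 1 and 0.66 on chromosome 6. The division was noticed after the values were seen and rests on single tables.

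Set directly against the treated cells, the edited line had 14 of 32 members 1.5-fold or more lower, where 11.7% of 7206 genes were, and 0 higher, where 14.2% were. At 2-fold 3 were lower, against 2.9% of genes, and 0 higher, against 4.16%. These were H4C16 at -1.22, H2BC18 at -1.07 and H2BC26 at -1.04. The 14 were all 9 H2B genes, 2 of 6 H3 genes and 3 of 4 H4 genes, and the H1 median was 0.06. The H3 genes were H3C14 and its copy H3C15, and the H4 genes included H4C14 and its copy H4C15. Their shared reads are therefore counted more than once. This comparison shares both of its tables with the comparisons above and adds no separate measurement.

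Along the coding sequence, histone depth was uneven in a way that recurred from table to table. The coding sequence was divided into 10 equal parts, and each part's share of a gene's coding depth was averaged over a class. In H2B part 3 had the highest mean of the parental table, 15.2%, and held over 10% in 8 of 9 genes of every table. In H2A parts 7 and 8 had the highest means, 17.3% and 16.2%, led by H2AC25 with 40.2% and 29.7%. The 2 averaged H4 genes differed, since part 5 held 34.0%, 43.9% and 45.4% of H4C16 in the parental, edited and treated tables but 3.49%, 3.72% and 3.48% of H4C14. Over all genes every part of the parental table held between 9.67% and 11.4%. Across the 200 coding bins the median Pearson r of a member with itself was 0.95 between parental and edited, 0.84 between parental and treated and 0.89 between edited and treated. The medians over 7073 genes were 0.30, 0.32 and 0.27. For members with a length the depth was taken per base and for all genes per bin, so the measures differ. These values are descriptions, since neighbouring bins share reads and deeper genes have smoother profiles. H1-3 was the lowest member in all 3, at 0.03, 0.20 and 0.08.

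In the treated cells depth was shifted toward the start codon. Position was summarised as a 5′ share, in which the average depth of coding bins 1 to 20 is divided by the average of all 200. Its median over the members was 1.05 in the parental, 1.18 in the edited and 1.47 in the treated table, and over all 7073 genes 0.93, 0.96 and 1.42. The 5′ shift, the log2 ratio of the shares, had a median of 0.72 over the members for treated against parental, with 29 of 32 above 0, beside 0.61 and 79.2% for all genes. For the edited line it was 0.30 with 26 of 32 above 0, beside 0.06 and 53.8%. The 20 bins are a fixed share of each coding sequence. In members with a length, of 312 to 680 bases, they span fewer bases than in a longer gene. The values beside those of all genes and of the lists were not matched for length. Companion lists described below had like shifts in part. In the treated cells DNA replication and S phase genes had 0.88, histone chaperones 0.77 and the remaining lists 0.55 to 0.67. In the edited line chaperones had 0.31, variant histones 0.24 and messenger processing genes 0.16. S phase genes had -0.09 there and melanoma and neural crest markers -0.04. H2B genes, whose level differed most, had the smallest median shift in the treated cells, 0.33, against 0.84 for H2A, 0.91 for H1, 0.71 for H3 and 1.11 for H4, which includes H4C13 with its few covered bins.

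H1-4, whose level was nearly the same in treated and parental cells, had a 5′ share of 0.57 in the parental, 0.71 in the edited and 1.21 in the treated table. H2AC18 had 1.22, 1.71 and 2.39, and H3C14 had 1.44, 1.94 and 2.62. In these 3 genes the edited line lay between the other two. H2BC18 had 1.13, 1.14 and 1.25 and H2BC13 had 0.41, 0.39 and 0.44, nearly flat. H2BC26 at 0.23, 0.22 and 0.18 and H3C4 at 1.16, 0.82 and 0.76 went the other way. H3C11 is the third member with a negative shift, but its share was 0.03 or less in each table.

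**Figure D4:**
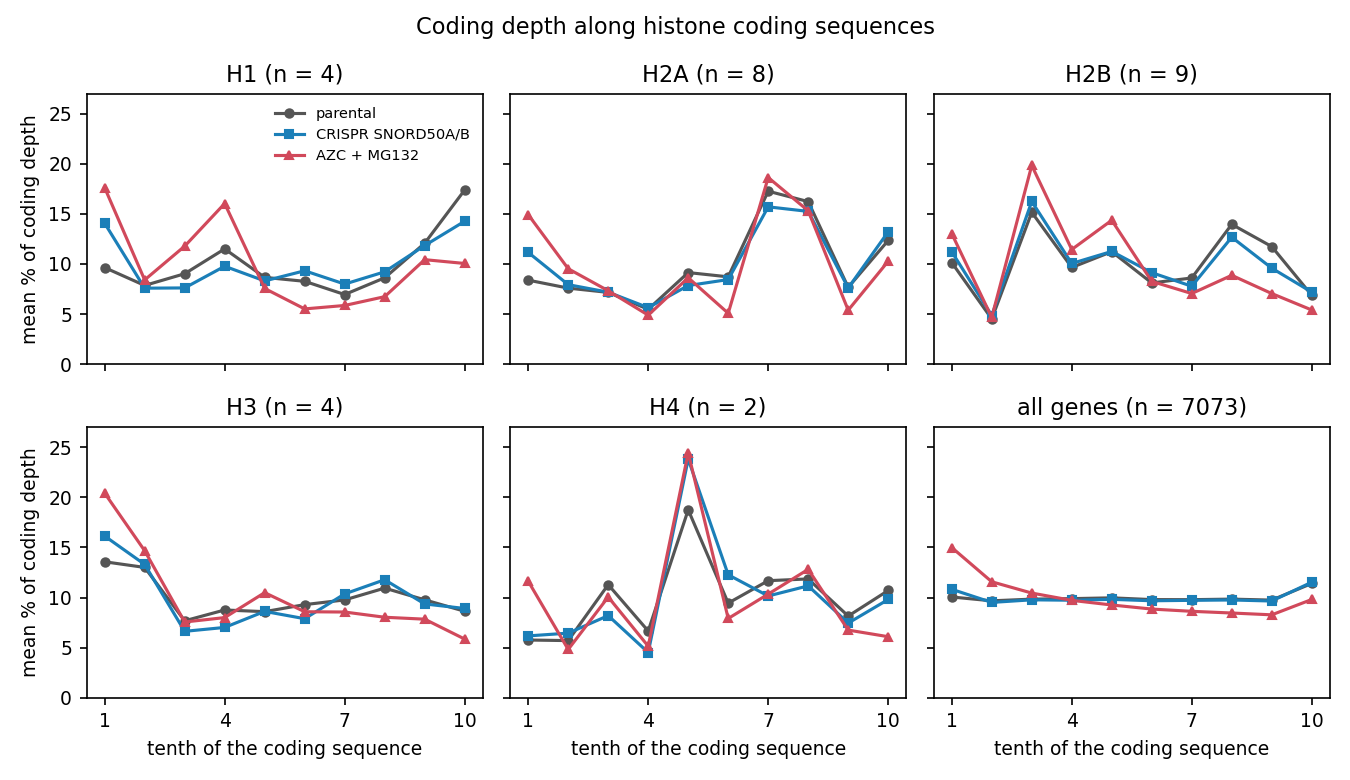
Mean percent of a gene's coding depth in each of 10 equal parts of the coding sequence, by histone class and over all genes, 1 line per table; n is the number of genes averaged, with identical pairs counted once and genes with few covered bins left out. The treated line is the highest in part 1 of every panel, the H2B peak in part 3 appears in all 3 tables, and the H4 peak in part 5 comes from 1 of the 2 averaged genes, H4C16.

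Downstream of the stop codon the members carried little depth. Depth in the 100 bins of the 3′ UTR amounted, in median, to 1.80% (parental), 2.29% (edited) and 2.05% (treated) of coding depth, beside 1.33%, 1.29% and 2.19% over all rows above the level minimum. H2AC17, with 3.21%, 5.13% and 16.0%, was highest in the treated cells. H2AC8, with 3.73%, 4.88% and 10.2%, was likewise highest in the treated cells, whereas H4C14, with 7.01%, 7.39% and 3.90%, was lowest there. H3C4 stood near 10% in all 3, at 11.0%, 9.30% and 10.3%, the highest of the members in the parental and edited tables.

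The first 100 bins of histone rows, which stand for the 5′ UTR, did not behave as a separate region. Relative to coding depth, they held in median 58.0% (parental), 58.5% (edited) and 70.7% (treated), against 5.16%, 5.55% and 10.1% over all rows above the minimum. Between 90% and 120% lay 11 of 32 members of the parental table, where 1.13% of rows did. H3C11 held 10209 in these bins and 10199 in its coding bins, and H2BC13 held 100.7%. Stretches of the first 100 bins were set against coding stretches whose depth was within 5% of theirs, and the pair with the highest Pearson r was kept for each member. The best r was 0.9 or more in 15 of 32 members, and in H2BC13 bins 7 to 100 followed coding bins 1 to 197 with r = 0.99, the highest of all. Each r is the best of a search over stretches whose neighbouring bins share reads. The same search of other genes is not given, so the count of 15 has no background share. The course did not recur in every row, with a best r of 0.63 in H4C14, 0.57 in H3C4, 0.23 in H3C10 and 0.18 in H2AC13, and 3 members had no such stretch (H2BC8, H3C7 and H4C13). Since these bins may hold coding depth again in part of the rows, no 5′ UTR occupancy of histones is reported. Over all 400 bins the members' median log2 ratio of treated to parental was 0.63 in place of 0.71.

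**Figure D5:**
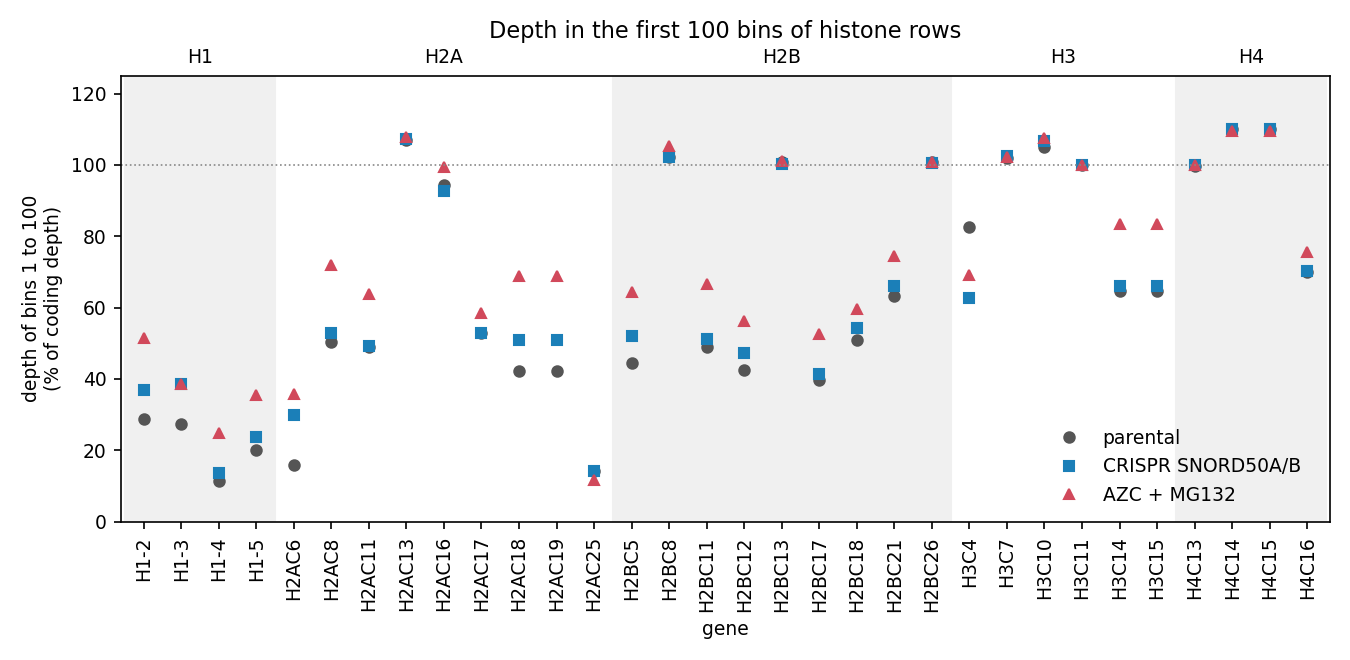
Depth summed over bins 1 to 100 as a percent of coding depth for the 32 compared members, 1 point per table; the dotted line marks 100%. A group of genes including H2AC13, H2BC8, H2BC13, H3C7 and H4C14 lies near or just above 100% in every table, and H2AC25 and H1-4 lie lowest in the parental table.

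The variant histones of a companion list, called replication-independent here, did not share the higher level in the treated cells. Of 10 compared, 0 were 1.5-fold higher and 1 was lower, MACROH2A1, a repressive H2A variant, at -0.70. Their median log2 ratio was 0.05. H3-3A, which encodes the H3.3 variant, had levels of 592.8 in the parental, 489.6 in the edited and 610.6 in the treated table. H2AZ1, an H2A variant at promoters, had 432.9, 456.3 and 496.3. In the edited line 0 of 11 passed 1.5-fold either way, with a median of -0.09.

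Genes that make or process histone messengers had a median of 0.07 over 20 compared in the treated cells, with 1 past 1.5-fold higher and 1 lower. POU2F1, which binds the octamer, was at 0.99, from levels of 8.32 in the parental and 16.6 in the treated table. CPSF2, a subunit of the cleavage machinery, was at -0.86. SLBP had levels of 86.1, 103.8 and 79.4 in the parental, edited and treated tables. It is given, although outside the naming rule, because of its role in histone translation. In the edited line the median was 0.13, with 1 higher, POU2F1 at 0.69, and 2 lower. The lower genes were SYMPK, the scaffold of the cleavage complex, at -0.82 and ERI1, the exonuclease that trims histone messengers, at -0.68.

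Histone chaperones and importers had a median of -0.09 over 27 in the treated cells, with 2 past 1.5-fold higher and 4 lower. UBN1 and HIRA, partners in the complex that deposits H3.3, were at -1.35 and -0.98, and SET, a chaperone of the nucleus and cytoplasm, at -1.16. NASP, which holds soluble H3 and H4, stood at 280.5 in the parental, 321.0 in the edited and 373.7 in the treated table. In the edited line 1 of 27 was higher, RBBP7, a histone-binding subunit, at 0.83, and 0 were lower.

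DNA replication and S phase genes had a median of -0.01 over 32 compared in the treated cells, and 0 passed 1.5-fold in either direction. PCNA, the sliding clamp, had levels of 310.4 in the parental, 358.8 in the edited and 421.0 in the treated table, a log2 ratio of 0.44 for treated against parental that was the largest of the list. MCM7, part of the replicative helicase, had 627.6, 708.3 and 730.5, and RRM2, the small subunit of ribonucleotide reductase, had 483.6, 451.4 and 482.6. In the edited line 0 of 33 were higher and 3 lower, GINS1 at -0.77, LIG1 at -0.73 and POLD1 at -0.62. The share of cells in S phase was not measured, and its part in the histone values was not tested.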

How the data were processed

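The deposited values are on a log2 scale: the authors gave, for each of 3 conditions, log2(x + 1) to 2 decimals in 400 bins per RefSeq transcript, x being read here as summed read depth. Bowtie2, TopHat2 and the build hg19 are named in the submitters' processing notes. Sources used here do not give how a group's libraries were joined into its table. In coding bins x included the log2 value that the preceding row holds in that bin. It was subtracted, and then 100% of coding bins with a log2 below 4 held whole numbers.

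Per gene the row with most depth was used. The level was taken from the 200 coding bins and not from all 400. This changed the planned choice, because the first 100 bins of some histone rows may hold coding depth again. Lengths came from bin widths, in steps of 2 bases, in place of the planned RefSeq proteins, and proline content was not analysed here. Genes were compared where coding depth exceeded the lower quartile of rows in both tables, with a pseudocount of 0.5. The limits of 1.5-fold and 2-fold are limits of size and not tests. Names came from the GRCh38.p14 gene table. The steps were tested on simulated data. Python 3.11.15, numpy 2.4.6 and pandas 2.3.3 were used.

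The members and the 6 companion lists were chosen with earlier results of these data known. Named by rule were, per class, the 3 members highest per length, the 4 largest and the 4 smallest ratios of each comparison with parental, those past 2-fold and those not in every table, and, per companion list, the 3 highest levels and the 3 largest ratios of each such comparison. Some companion genes that this rule names are not reported here. Other members were named after their values were seen.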

Additional observations from a re-analysis of the deposited data

How the results depend on the processing

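Of 216 alternatives to the members' medians, counts, shifts and shares, 201 stayed within 0.1 on the log2 scale, 1 percentage point or 1.5 times the count, and none of all 2432 turned a value past 1.5-fold to the other sign. For treated against parental, the 4 members past 2-fold higher became 1 over all 400 bins, 8 with the first 100 coding bins and 1 with the last 100 coding bins. With the first 100 coding bins 1 of 10 members on chromosome 1 lay below 0, at -0.19. With the last 100, 2 of 21 on chromosome 6 lay below 0, the lowest at -0.22. For edited against parental, the 1 member past 2-fold became 0 without the first 20 coding bins, with the first 100 coding bins, with coding bins as deposited and with a level minimum 4 times higher, and 2 with the last 100 coding bins. The 5 past 1.5-fold became 3 with that minimum and 3 with members of 150 or more covered bins, a setting chosen after seeing the data. For edited against treated, the last 100 coding bins gave a median of -0.34 in place of -0.47, 2 members 1.5-fold higher in place of 0 and 9 lower in place of 14. With 40 bins in place of 20 the median 5′ shift was 0.49 for treated against parental and -0.30 for edited against treated. The cause was not tested. No paired analysis was possible because no library has a column of its own, and for the same reason no library could be left out. Depth per library is unknown, and with 1 table per condition no error can be given.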
